A study of Homo sapiens with 17 samples.

Results

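The cytosolic heat shock genes described here are 10 genes, taken by their symbols from the deposited tables: HSF1, HSPA1A, HSPA1B, HSPA6, HSPA8, HSPH1, HSP90AA1, HSP90AB1, DNAJB1 and BAG3. They are 10 of the 14538 genes listed, and each has 1 entry in both tables. The study sequenced stranded total RNA, after removal of ribosomal RNA, from HEK293T, a human embryonic kidney cell line, as 17 libraries. The parental line is HEK293T without the tag, and 3 untreated parental libraries were made. In INTS1-AID cells both copies of INTS1 carry a miniAID degron, a tag through which auxin, a plant hormone, directs the protein to degradation. Integrator, of which INTS1 is a scaffold subunit, cuts RNA that polymerase II is still making and so ends transcription early on many genes. INTS1-AID cells were sequenced untreated (3 libraries), at 4 h with 500 µM auxin (3) or without it (2), and at 12 h with 500 µM auxin (3) or without it (3). The same table of the authors also holds 2 comparisons by TT-seq, an assay that captures newly made RNA, at 4 h of loss of INTS1 or of INTS8, another Integrator subunit. Those TT-seq libraries are not among the 17, and their number, and the line and agent behind the INTS8 comparison, were not given in the sources used here. Each auxin comparison was made within 1 line and no parental library had auxin, so an effect of auxin itself and an effect of INTS1 loss cannot be told apart. No label says that the libraries of a group came from separate cultures, and all p-values below reflect the spread between libraries, which may be technical.

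HSF1 is the transcription factor of the heat shock response. In unstressed cells chaperones hold it inactive; when unfolded proteins draw the chaperones away, HSF1 forms trimers and binds heat shock elements, inverted repeats of the unit GAA, upstream of chaperone genes. Its targets include the HSP70 proteins (HSPA1A, HSPA1B, HSPA6 and, mostly constitutive, HSPA8), the HSP90 proteins (HSP90AA1 and HSP90AB1), and helpers of the HSP70 cycle: the J-domain protein DNAJB1, which delivers substrates, and the nucleotide exchange factors HSPH1 and BAG3.

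The upstream sequences of these genes were searched for the letters of the element. The members were taken by symbol as heat shock genes, a class named for the response that acts through these elements. The search therefore describes them, and matches above the share of all promoters are no independent support. GAANNTTC or TTCNNGAA was counted as 2 units, and either of these followed by NN and a further GAA or TTC, in alternation, as 3 units. Each of the 2-unit motifs reads the same on both strands, the 3-unit motifs are each other's reverse complements, and every 3-unit match also holds 2 overlapping 2-unit matches. The 250 bases upstream of the RefSeq start site nearest to the start in the deposited tables were searched for the 9 members that the RefSeq promoter table (build GRCh38.p14) lists, which leaves out HSF1. Of these, 6 held 2 units and 3 held 3 units, whereas 11.6% of the 35116 promoters in that table held 2 units and 0.441% held 3. The stretches around the matches nearest to the start are shown 5′ to 3′ on the strand of the gene, with the GAA and TTC units of the matches in capitals.

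HSPA1A (chr6:31815422-31815459, plus strand): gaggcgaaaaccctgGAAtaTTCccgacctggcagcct
HSPA1B (chr6:31827618-31827655, plus strand): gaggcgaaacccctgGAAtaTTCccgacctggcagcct
HSPA6 (chr1:161524411-161524493, plus strand): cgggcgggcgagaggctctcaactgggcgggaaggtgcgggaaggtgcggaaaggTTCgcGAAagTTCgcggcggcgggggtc
HSPA8 (chr11:123062164-123062246, minus strand): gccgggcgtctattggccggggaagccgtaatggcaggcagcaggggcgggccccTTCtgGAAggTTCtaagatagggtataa
HSP90AA1 (chr14:102087090-102087147, minus strand): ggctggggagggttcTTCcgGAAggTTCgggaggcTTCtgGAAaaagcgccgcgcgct
DNAJB1 (chr19:14518422-14518489, minus strand): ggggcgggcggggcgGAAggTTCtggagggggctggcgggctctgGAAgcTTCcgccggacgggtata
HSPH1 (chr13:31162389-31162468, minus strand): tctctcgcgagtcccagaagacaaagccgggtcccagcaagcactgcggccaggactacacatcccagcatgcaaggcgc
BAG3 (chr10:119651300-119651379, plus strand): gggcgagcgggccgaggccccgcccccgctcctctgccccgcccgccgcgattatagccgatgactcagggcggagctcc

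HSPA6, HSPA8 and HSP90AA1 held 3 adjoining units, starting 74, 55 and 88 bases upstream of the RefSeq start. For HSPA8 and HSP90AA1 that start lies 199 and 147 bases from the deposited one. The stretches shown for these 2 genes lie inside the deposited gene spans, downstream of the deposited starts. HSPA8 held a further 3-unit match that started 230 bases upstream, and HSPA6 a further 2-unit match that started 180 bases upstream, both outside the stretches shown. DNAJB1 held 2 separate 2-unit matches, starting 77 and 47 bases upstream, and no 3-unit match. HSPA1A and HSPA1B, neighbouring copies on chromosome 6, held 1 match each in nearly the same surroundings, starting 106 and 105 bases upstream. HSPH1, BAG3 and HSP90AB1 held no match in the 250 bases; for HSPH1 and BAG3 the 80 bases before the start are shown, because both rose with auxin (below). A missing match says that these letters are not in this window, and a match does not show that HSF1 binds there.

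Reads of several members cannot be assigned with certainty, because their transcripts share sequence with other genes. Of the 50-base stretches in GENCODE v29 transcripts, 71.3% of those of HSPA1A also occur in HSPA1B, and 45.5% of those of HSPA6 occur in HSPA7. The shared share over all other genes was 73.5% for HSPA1B, 16.6% for HSP90AB1, 11.3% for HSP90AA1, 8.23% for HSPA8 and 2.02% for DNAJB1, and it was 0% for HSF1, HSPH1 and BAG3. How reads that map to several places were counted is not stated in the sources used here, so levels of HSPA1A, HSPA1B and HSPA6 are uncertain. In GENCODE v29, AL671762.1 overlaps HSPA1B and AL590385.2 overlaps HSPA6 on the same strand, as SNORD14C, SNORD14D and SNORD14E do HSPA8. On the opposite strand, AC233992.1 and DGAT1 overlap HSF1, and TECR overlaps DNAJB1. The overlap of TECR with DNAJB1 is 12686 bases in GENCODE v29 and 0 in the deposited coordinates. The part of these genes in the values of the members was not tested.

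**Figure D1:**
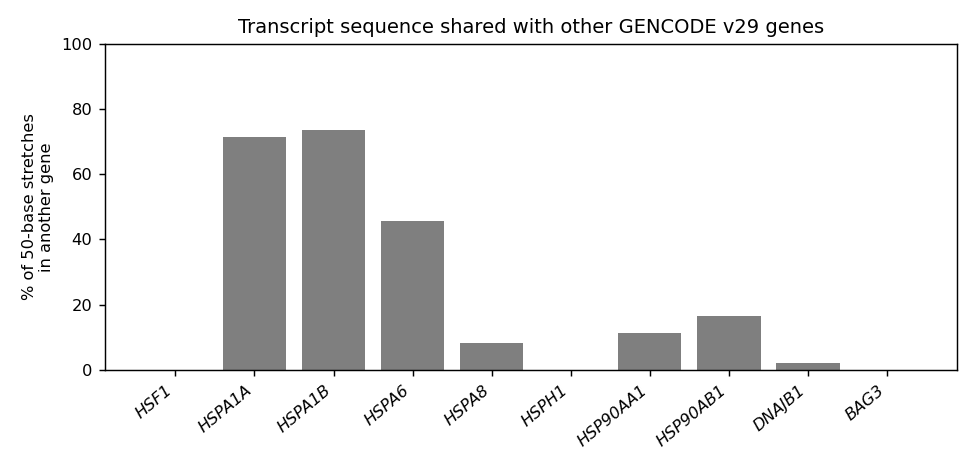
Percentage of the 50-base stretches of each member's transcripts (vertical axis) that also occur in transcripts of another GENCODE v29 gene. HSPA1A, HSPA1B and HSPA6 stand at 71.3%, 73.5% and 45.5%, and the other 7 genes at 16.6% or less.

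The 6 untreated libraries held 26294938 to 39321998 reads in genes. Depth is unknown for the other 11 libraries, for which the authors' comparison values were used. The 5 HEK293T markers used (NEFL, NEFM, PAX2, SOX2 and EYA1) were in the table, with summed normalized counts of 2817 to 3034 in parental and 3136 to 3297 in INTS1-AID libraries. The markers did not move together: EYA1 was at 475 to 624 in parental and 163 to 190 in INTS1-AID libraries, and PAX2 at 31.9 to 67.5 and 13.1 to 25.8. NEFL was at 1422 to 1586 and 1974 to 2005, and NEFM at 577 to 739 and 749 to 896, whereas the SOX2 ranges overlapped. The part of this difference in the results for the untreated lines was not tested. None of the 3 blood and none of the 3 fibroblast markers is listed, and of the 2 colon markers CDX2 is, at 884 to 1125 in parental and 934 to 1011 in INTS1-AID libraries. Parental library 3 stood apart. Its deviation from the mean of its group rose with GC content (Spearman's rho over genes 0.73), whereas that of parental libraries 1 and 2 fell with it (-0.55 and -0.69). Deviations within a group offset each other by construction, so these trends are not independent. INTS1 mRNA, which the degron does not target, was at 5530 ± 1708 normalized counts in parental and 3956 ± 215 in INTS1-AID cells (SD, n = 3 each; log2 difference -0.44, limma adjusted p = 0.298). For auxin, the authors' deposited table lists INTS1 mRNA at log2 changes of -0.18 (4 h) and -0.16 (12 h), which does not check the loss of the protein.

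In untreated cells the counts of the heat shock genes spanned most of the range in the table. Per kilobase of transcript, and averaged over the 6 libraries, the constitutive chaperones HSPA8 and HSP90AB1 were highest, at 40868 and 40135 normalized counts per kilobase, which rank 17 and 18 of the 14538 genes. HSP90AA1 followed at 31791 per kilobase (rank 33). The cofactors were lower, with HSPH1 at 3866 (rank 586), DNAJB1 at 2310 (rank 1082) and BAG3 at 637 (rank 4214) normalized counts per kilobase. HSF1 itself stood at 969 per kilobase (rank 2927), between DNAJB1 and BAG3. The stress-inducible HSP70 genes were near the bottom, with HSPA6 at 17.3 (rank 12417), HSPA1B at 2.29 (rank 13885) and HSPA1A at 0.0699 (rank 14426) per kilobase. Because these genes share much sequence with others, low counts may also mean reads that were not assigned, so their ranks are uncertain. HSPA8 and HSP90AB1 overlapped in every group of libraries and are not separated by this order.

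HSF1 had 2229, 2007 and 2599 normalized counts in parental libraries 1, 2 and 3, and 2081, 2027 and 2030 in INTS1-AID libraries 1, 2 and 3. All 3 INTS1-AID libraries lay within the parental range. HSPA6, a strictly stress-induced HSP70 gene in humans, had 44.1, 31.0 and 61.9 normalized counts in the parental libraries and 38.7, 35.3 and 34.0 in the INTS1-AID libraries, again within the parental range. HSPA1A had 0 reads in 5 libraries and 1 read in INTS1-AID library 2, and a count of 0 still allows up to 3 reads. HSPA1B had 2, 2 and 13 reads in the parental libraries and 5, 5 and 6 in the INTS1-AID libraries, with the highest value in parental library 3. Both are inducible HSP70 genes; at these counts a difference between the lines was not detectable, and such floors cover counting error alone.

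HSP90AB1, the constitutive HSP90 gene, had 96550, 98681 and 98595 normalized counts in the parental libraries and 107687, 107894 and 112366 in the INTS1-AID libraries. Every INTS1-AID library was above every parental one, yet the log2 difference of 0.16 ± 0.045 (SE) missed the threshold (limma adjusted p = 0.135). Without parental library 3 the difference was still 0.16 and passed (limma adjusted p = 0.00707). HSPA8, the constitutive HSP70 gene, had 102104, 107403 and 91497 normalized counts in parental and 108056, 111186 and 112640 in INTS1-AID libraries. The lines did not overlap here either, with parental library 3 lowest, and the log2 difference was 0.14 ± 0.065 (limma adjusted p = 0.307). HSP90AA1, the inducible HSP90 gene, stood at 106623 ± 6748 in parental and 108220 ± 3447 in INTS1-AID cells (SD, n = 3 each).

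DNAJB1 had 5870, 5916 and 6278 normalized counts in parental libraries and 6205, 5974 and 5639 in INTS1-AID libraries. BAG3 had 1662, 1560 and 1713 in parental and 1682, 1622 and 1584 in INTS1-AID libraries, and HSPH1 ranged from 14926 to 16341 in parental and from 15124 to 15652 in INTS1-AID libraries. For all 3 cofactors the lines overlapped, and the log2 differences were -0.020 for DNAJB1, -0.014 for BAG3 and -0.022 for HSPH1 (limma adjusted p = 0.891, 0.935 and 0.860). Of the 8 members whose mean normalized count reached 10, limma called 0, against 2.22% of all 13293 genes tested. At an unadjusted p under 0.05 limma counted 1 member, HSP90AB1, and edgeR, DESeq2 and the authors' deposited table likewise called 0 members and had this 1 gene under 0.05 unadjusted. The lines did not overlap for 2 of the 8 members, against 30.7% of all genes tested. Without parental library 3, limma called 1 of 8 members, against 18.3% of all genes.

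**Figure D2:**
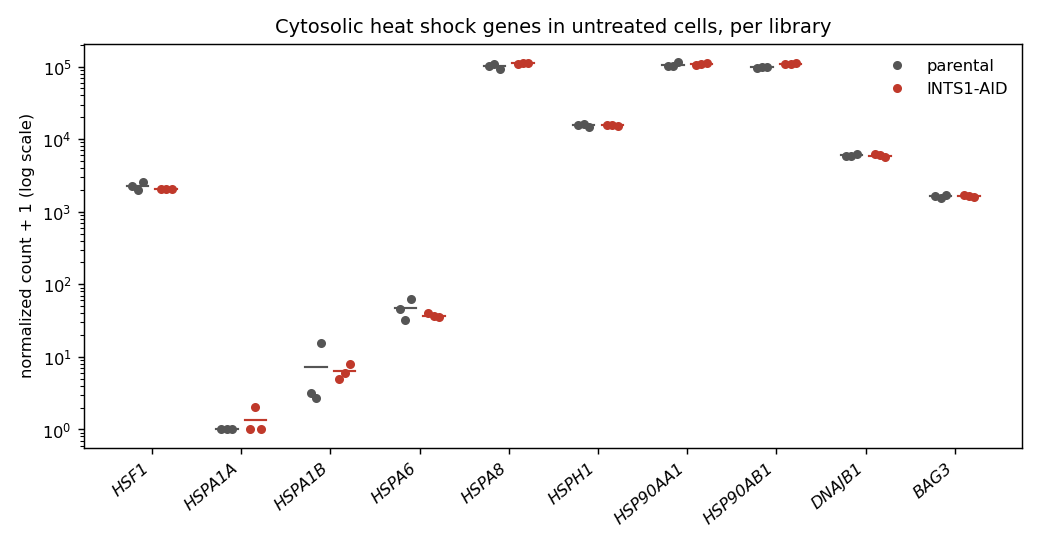
Normalized count + 1 (log scale) of the 10 heat shock genes in the 3 untreated parental (grey) and 3 untreated INTS1-AID (red) libraries; each point is a library and the short bars are group means. The lines overlap for 8 of the 10 genes, and levels run from 0 reads in 5 libraries for HSPA1A up to 112640 normalized counts for HSPA8.

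The auxin comparisons asked how loss of INTS1 changes RNA levels. With auxin, the cofactors DNAJB1 and BAG3 rose at both times and in newly made RNA, and HSPH1 rose at 4 h and in newly made RNA. HSF1 mRNA fell at both times. The abundant chaperones HSPA8, HSP90AA1 and HSP90AB1 did not pass the test at either time, and the inducible HSPA1A and HSPA1B had mean counts of 12 or less. Values per library were not used for these comparisons, so the level of each arm below is the one implied by the authors' mean normalized count and log2 change, normalized within each comparison. In bulk RNA, fewer cells of a type and less RNA per cell cannot be told apart.

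DNAJB1, whose protein stimulates the HSP70 ATPase, had an implied 3073 normalized counts without auxin and 4041 with it at 4 h in the authors' deposited table. Its log2 change there was 0.39 ± 0.050 (implied SE; 1.31-fold; DESeq2 adjusted p = 9.48e-14). At 12 h the authors' deposited table implies 3367 normalized counts without auxin and 5863 with it, a log2 change of 0.80 ± 0.096 (1.74-fold; DESeq2 adjusted p = 1.75e-15). DNAJB1 thus stood higher with auxin at both times, and of all genes tested in the authors' deposited table, 20.4% and 12.8% had a higher log2 change at 4 h and 12 h. In newly made RNA after INTS1 loss, the authors' deposited table implies 739 and 1127 counts, a log2 change of 0.61 ± 0.12 (1.52-fold; DESeq2 adjusted p = 2.92e-06).

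BAG3, an exchange factor that also hands HSP70 clients to autophagy, rose from an implied 848 to 1143 normalized counts at 4 h in the authors' deposited table (log2 change 0.43 ± 0.079, 1.35-fold, DESeq2 adjusted p = 4.39e-07). For 12 h the authors' deposited table gives 1872 and 2502 implied normalized counts and a log2 change of 0.42 ± 0.097 (1.34-fold; DESeq2 adjusted p = 7.33e-05). It was thus called at both times, and also in newly made RNA, where the authors' deposited table gives a log2 change of 0.52 ± 0.13 (1.43-fold; DESeq2 adjusted p = 0.000543).

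HSPH1, the HSP110 exchange factor, rose from an implied 7411 to 8814 normalized counts at 4 h in the authors' deposited table (log2 change 0.25 ± 0.039, 1.19-fold, DESeq2 adjusted p = 2.03e-09). At 12 h its log2 change was 0.21 ± 0.13 in the authors' deposited table and did not pass the test (95% interval -0.044 to 0.47, DESeq2 adjusted p = 0.184). In newly made RNA after INTS1 loss it rose from an implied 2956 to 4336 counts in the authors' deposited table (log2 change 0.55 ± 0.095, 1.47-fold, DESeq2 adjusted p = 1.60e-07). HSPH1 was thus called in newly made RNA and at 4 h and not at 12 h, where its standard error was larger.

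HSF1 fell from an implied 1273 to 1063 normalized counts at 4 h in the authors' deposited table (log2 change -0.26 ± 0.070, 0.835-fold, DESeq2 adjusted p = 0.000974). At 12 h it fell from an implied 2649 to 2119 in the authors' deposited table (log2 change -0.32 ± 0.12, 0.80-fold, DESeq2 adjusted p = 0.0197). In newly made RNA after INTS1 loss the authors' deposited table gives HSF1 a log2 change of -0.59 ± 0.26, which missed the threshold (DESeq2 adjusted p = 0.0866). HSF1 lies on chromosome 8 (hg38, 144291591 to 144314720, plus strand), and its end overlaps that of DGAT1, a gene of triglyceride synthesis on the minus strand, by 137 bases in the deposited coordinates. DGAT1 rose in the same comparisons, for which the authors' deposited table lists log2 changes of 1.22 at 4 h and 1.96 at 12 h (DESeq2 adjusted p = 1.22e-40 and 8.37e-79). The libraries keep strand, but the strand setting of the counting is not given, so reads of the shared bases cannot be told apart, and the part of DGAT1 in the HSF1 values was not tested.

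HSPA6 at 12 h had an implied 10.7 normalized counts without auxin and 33.3 with it, by the authors' deposited table. This was the largest rise that passed the test among the 10 members, with a log2 change of 1.64 ± 0.40 (3.11-fold; 95% interval 0.86 to 2.42; DESeq2 adjusted p = 0.000172, from the authors' deposited table), and it started from a low level. At 4 h it had an implied 18.0 and 31.3 normalized counts in the authors' deposited table, and the log2 change of 0.79 missed the threshold (interval -0.079 to 1.67; DESeq2 adjusted p = 0.155). The mean in newly made RNA was 3 counts after INTS1 loss in the authors' deposited table, too few to show a change of this size. The part of AL590385.2, which overlaps HSPA6 on the same strand in GENCODE v29, in the HSPA6 values was not tested. HSPA7 was the 1 other gene whose transcripts share 50-base stretches with those of HSPA6. The authors' deposited table lists HSPA1A at a mean of 1 normalized count at each time, and HSPA1B at means of 5 (4 h) and 12 (12 h). The log2 changes of HSPA1B were -0.12 at 4 h (interval -1.91 to 1.68) and -0.38 at 12 h (interval -1.31 to 0.55) in the authors' deposited table.

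The 95% intervals of the 3 abundant chaperones held 0 at both times, and that of HSP90AA1 at 12 h was the widest. HSPA8 had a log2 change of -0.062 at 4 h (interval -0.13 to 0.0068) and 0.11 at 12 h (interval -0.035 to 0.26) in the authors' deposited table. HSP90AA1 stood at 0.0095 at 4 h (interval -0.16 to 0.18) and -0.0014 at 12 h (interval -0.25 to 0.25) in the authors' deposited table. HSP90AB1 stood at -0.039 at 4 h (interval -0.11 to 0.035) and -0.077 at 12 h (interval -0.23 to 0.080) in the authors' deposited table. None of these 6 changes passed the test (the authors' deposited table gives adjusted p from 0.159 to 0.995 by DESeq2).

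Counted together, 3 members rose (19.2% of all 14479 genes tested rose) and 1 fell (19.2% of all genes fell) at 4 h, by the authors' deposited table, or 4 of 10 against 38.4% of all genes. The count at 12 h, again from the authors' deposited table, was 3 members that rose (21.9% of all 14485 genes rose) and 1 that fell (22.3% fell), or 4 of 10 against 44.2%. These shares of called members are close to those of all genes. The median log2 change of the 10 members was -0.015 at 4 h and 0.16 at 12 h, against 0.0048 and 0.011 over all genes, from the authors' deposited table. Both medians include HSPA1A, at a mean of 1 count, with log2 changes of -0.83 ± 1.75 at 4 h and 0.75 ± 1.42 at 12 h (implied SE). After INTS1 loss, 3 members rose in newly made RNA (13.3% of all 13876 genes rose) and 1 fell (10.7% fell) by the authors' deposited table, or 4 of 8 against 24.1%; HSPA1A and HSPA1B have no adjusted p there. The 1 that fell was HSP90AB1, from an implied 7827 to 6635 counts (log2 change -0.24 ± 0.091, DESeq2 adjusted p = 0.0382, from the authors' deposited table). The median of the 8 was 0.30, against -0.0071 over all genes, from the authors' deposited table. That median lies in a gap between HSP90AA1 (0.080) and BAG3 (0.52), so it is not the change of a typical member. It also includes HSPA6, at a mean of 3 counts, with a log2 change of 0.73 ± 0.98 (implied SE).

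**Figure D3:**
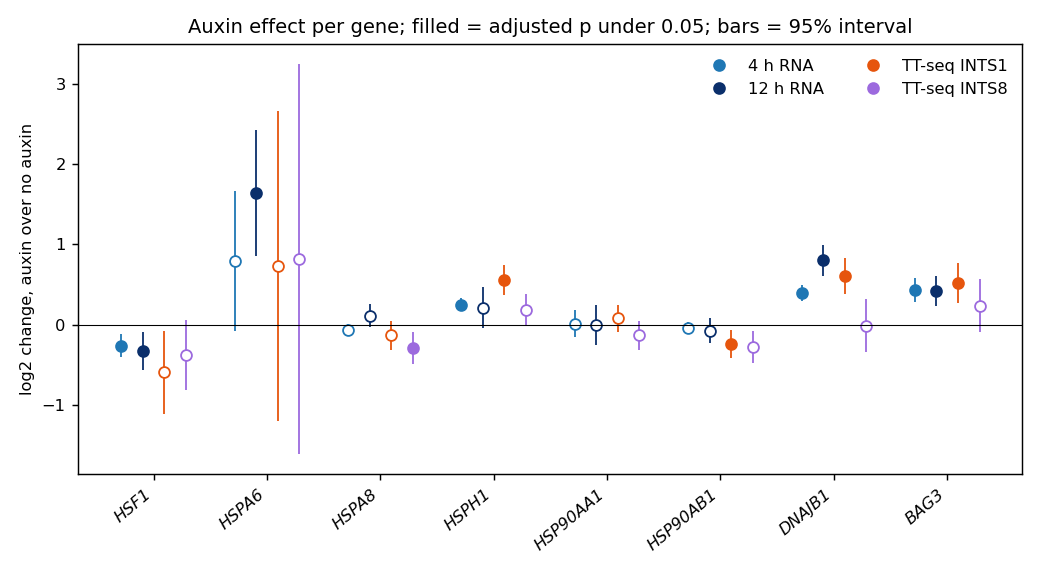
Log2 change with auxin, or after loss of the named subunit in TT-seq (vertical axis), for 8 heat shock genes in the authors' 4 comparisons; bars are 95% intervals from the implied standard errors, and filled points passed an adjusted p under 0.05. DNAJB1 is filled at 0.39, 0.80 and 0.61 in the first 3 comparisons and lies at -0.011 for INTS8, whose sign was taken from a correlation, and the intervals of HSPA6 are the widest.

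In the INTS8 comparison of newly made RNA, the authors' deposited table gives HSPA8 a log2 change of -0.29 ± 0.10 between arms of an implied 11433 and 9373 counts (0.82-fold, DESeq2 adjusted p = 0.0480). It was the 1 member called of 7 tested, against 9.43% of all 13592 genes called and 2.87% called in the same direction as HSPA8 by the authors' deposited table. Which arm is the loss of INTS8 is in doubt. In the INTS1 comparison the table's log2 expression column matches the arm without loss (median error 0.0012 over 167 genes), whereas in the INTS8 comparison it matches the arm read here as the loss (0.0011 over 57 genes, against 0.703 for the other arm). The sign used was taken from the correlation with the INTS1 values over 8306 genes (Pearson's r = 0.88, genes not being independent replicates). With the sign turned, HSPA8 would stand higher after INTS8 loss, by 0.29 log2. HSP90AB1 had a change of nearly the same size, -0.28 ± 0.10, which missed the threshold (the authors' deposited table gives an adjusted p of 0.0556 by DESeq2). DNAJB1 stood at -0.011 ± 0.17, BAG3 at 0.24 ± 0.17 and HSPH1 at 0.18 ± 0.10 log2, with adjusted p of 0.983, 0.466 and 0.311 by DESeq2, all from the authors' deposited table.

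The differences between comparisons were tested directly with a Wald z test on the deposited log2 changes, adjusted over all genes. From 4 h to 12 h, 1 of 10 members differed, against 14.9% of all genes in either direction and 6.33% with a larger value at 12 h. This was DNAJB1, whose log2 change was 0.41 ± 0.11 larger at 12 h than at 4 h (interval 0.19 to 0.62; Wald z adjusted p = 0.00304). For BAG3 the difference was -0.013 (interval -0.26 to 0.23), for HSPH1 -0.038 (interval -0.31 to 0.23), for HSF1 -0.062 (interval -0.34 to 0.21) and for HSPA6 0.84 (interval -0.33 to 2.01). The 2 times were separate series of libraries that the authors normalized separately, so time and series cannot be told apart. The log2 expression column matches neither arm at 12 h, and the 12 h sign was taken from the correlation with 4 h over 8306 genes (Pearson's r = 0.83).

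Between loss of INTS8 and loss of INTS1, with the INTS8 sign used here, the Wald z test called 0 of 9 members, against 0.806% of all genes. At an unadjusted p under 0.05 it counted 2 members. The log2 change after INTS8 loss minus that after INTS1 loss was -0.62 for DNAJB1 (interval -1.01 to -0.22; Wald z adjusted p = 0.146) and -0.37 for HSPH1 (interval -0.65 to -0.098; Wald z adjusted p = 0.306). For BAG3 the difference was -0.28, with an interval of -0.69 to 0.13. With the INTS8 sign turned, an alternative added after the data were seen, the test called 6 of 9 members, against 29% of all genes. The differences were then -0.60 for DNAJB1, -0.73 for HSPH1 and -0.75 for BAG3 (Wald z adjusted p = 0.0144, 2.30e-06 and 0.00242), and 0.97 for HSF1, 0.42 for HSPA8 and 0.52 for HSP90AB1 (Wald z adjusted p = 0.0200, 0.00995 and 0.000970). Turning the sign adds up the 2 deposited changes, which correlate over all genes, so changes shared by both comparisons grow by construction. Whether these members differ between INTS8 and INTS1 loss thus rests on the sign taken. The turned calls alone do not show a difference. Between 4 h RNA and newly made RNA after INTS1 loss, the test called 0 of 10 members, against 1.21% of all genes, and counted 2 at an unadjusted p under 0.05. HSPH1 had a smaller log2 change in total than in newly made RNA, by -0.30 (Wald z adjusted p = 0.134), and HSP90AB1 a larger one, by 0.20 (Wald z adjusted p = 0.465). No second tool was run on these differences.

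The rest of the chaperone network was followed with 70 genes in 10 lists. At 4 h, 10 of 66 genes tested rose and 13 fell by the authors' deposited table, and at 12 h 11 rose and 9 fell, against 19.2% of all genes in each direction at 4 h and 21.9% and 22.3% at 12 h. Their median log2 change was -0.0058 at 4 h and 0.042 at 12 h, against 0.0048 and 0.011 over all genes, from the authors' deposited table. Of 8 J-domain genes tested, the authors' deposited table has 2 that rose at each time and 0 that fell, DNAJB4 (log2 change 0.51 at 4 h and 0.40 at 12 h) and DNAJB2 (0.29 and 0.44). Of 6 other HSP70 and HSP110 genes, 2 rose and 1 fell at each time in the authors' deposited table. For HSPA2, an HSP70 gene best known from the testis, the authors' deposited table lists log2 changes of 2.56 ± 0.15 at 4 h and 3.40 ± 0.12 at 12 h (DESeq2 adjusted p = 7.80e-61 and 3.31e-173). It also rose in newly made RNA, by 1.60 after INTS1 loss, in the authors' deposited table. HSPA4, an HSP110 exchange factor like HSPH1, had log2 changes of -0.22 at 4 h and -0.53 at 12 h, its relative HSPA4L one of 0.37 at 4 h, and the divergent family member HSPA12A one of 0.47 at 12 h, all called by the authors' deposited table.

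The counts in this paragraph stand against 19.2% of all genes that rose and 19.2% that fell at 4 h. At 12 h the shares of all genes were 21.9% and 22.3%. Of the 3 genes of the HSF family and its regulator, HSF2, a relative of HSF1, fell at 4 h by the authors' deposited table (log2 change -0.29), and 0 of 3 passed at 12 h, where 0 had an unadjusted p under 0.05. Of 5 nucleotide exchange and BAG genes, BAG5 (-0.29) and BAG4 (-0.23) fell at 4 h by the authors' deposited table and 0 rose, and at 12 h 0 passed and 0 had an unadjusted p under 0.05. Among 12 co-chaperones of HSP90, the authors' deposited table has 1 that rose and 3 that fell at 4 h, and 1 that rose and 2 that fell at 12 h. FKBP4, which links HSP90 to steroid receptors, had log2 changes of 0.14 at 4 h and 0.43 at 12 h, and STUB1, the ubiquitin ligase CHIP, of -0.25 and -0.53, as the authors' deposited table lists them. STIP1 (-0.13), which bridges HSP70 and HSP90, and PTGES3 (-0.15), the cochaperone p23, fell at 4 h by the authors' deposited table, and CACYBP (-0.28) at 12 h. Of 8 subunits of the cytosolic chaperonin TRiC, CCT4 (-0.14) and CCT2 (-0.089) fell at 4 h and CCT4 (-0.20) at 12 h by the authors' deposited table, and 0 rose. Of the 2 small heat shock genes tested, HSPB1 and HSPB6, 0 passed at either time, and 0 had an unadjusted p under 0.05, by DESeq2 in the authors' deposited table.

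Chaperones of other compartments were followed as well. Of 10 chaperones of the endoplasmic reticulum, 4 rose and 0 fell at 4 h by the authors' deposited table, and 5 rose and 0 fell at 12 h, against 19.2% and 21.9% of all genes that rose. DNAJB9, a cofactor of the HSP70 protein of that compartment, had the largest rise, 0.66 at 4 h and 0.81 at 12 h, followed by DNAJC3 (0.29 and 0.50) and the lectin chaperone CALR (0.20 and 0.48) in the authors' deposited table. Of 7 mitochondrial chaperones, 4 fell at 4 h and 5 at 12 h, and 0 rose at either time, by the authors' deposited table, against 19.2% and 22.3% of all genes that fell. DNAJA3, the mitochondrial J-domain protein, had log2 changes of -0.37 at 4 h and -0.82 at 12 h, and TRAP1, the mitochondrial HSP90, of -0.16 and -0.34, from the authors' deposited table. Of 5 ubiquitin and other heat-inducible genes, MRPL18 (0.15) rose at 4 h and UBB (0.30) at 12 h by the authors' deposited table, and 0 fell. Between the untreated lines, 4 of 65 genes of these lists tested were higher in INTS1-AID cells and 0 lower by limma, against 1.85% of all genes tested called higher. They were HSPA9 (log2 difference 0.66), HSPA4 (0.55), CCT5 (0.44) and CANX (0.41), and all 4 lie on chromosome 5. The share of chromosome 5 among all genes called higher is not given here. The part of the chromosome in these 4 calls was not tested.

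**Figure D4:**
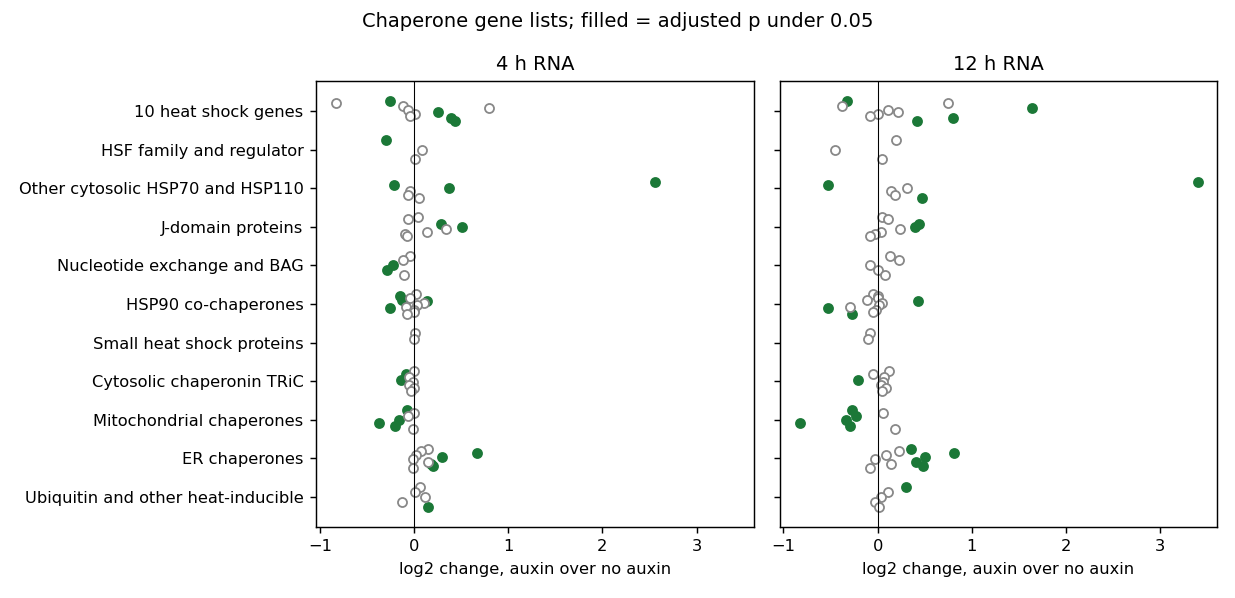
Log2 change with auxin (horizontal axis) at 4 h and 12 h for the 10 heat shock genes and for 66 tested genes of the 10 chaperone lists, 1 point per gene; filled points passed an adjusted p under 0.05. ER chaperones that passed lie above 0, mitochondrial ones below 0, and HSPA2 lies farthest right, at 2.56 and 3.40.

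Genes with the pattern most like that of DNAJB1 were sought by Euclidean distance over the 4 log2 changes of the authors' deposited table, among 8305 genes whose mean count reached 100 in all 4. The 5 nearest were NFIL3 (distance 0.109), a transcriptional repressor, GSTM3 (0.136), a glutathione transferase, DNAJC30 (0.158), a mitochondrial J-domain protein, LASP1 (0.172), an actin-binding protein, and PLCD3 (0.175), a phospholipase. BAG3 ranked 303 at a distance of 0.466, and HSPH1 ranked 780 at 0.638. HSP90AA1, HSPA8 and HSP90AB1 ranked 2988, 3795 and 5158. Turning the sign of a whole comparison leaves these distances as they are. Without the INTS8 comparison, GSTM3 was the 1 of these 5 genes still among the nearest 5, and BAG3 ranked 345 and HSPH1 924.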

How the data were processed

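Libraries were stranded RNA-seq, with groups taken from the line, time and auxin that the labels give. Named in the submitters' processing notes are STAR 2.7.3a, hg38, dm6 and DESeq2 (no version). The sources used here do not give annotation, counting tool or strand setting, nor which of 2 kits made each library. The members and lists were chosen with earlier results of these data known.

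The signal values are normalized counts per gene and untreated library, which the authors deposited; division by 1 read's value gave whole reads within 0.001 in 100% of values. The log2 and linear fold ratio columns hold the authors' changes, the p-value columns their p-values and adjusted p-values, and the score columns their calls and rounded mean counts, per the file headers. A log2 expression column deposited for 12 h holds other text in part. A column deposited by the authors holds the −log10 of the adjusted p of the cell line comparison and was not needed. Of the columns with values per library, 0 had no sample.

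For the untreated lines a count test gave way to limma 3.58.1 (trend, robust; R 4.3.3) on log2(normalized count + 1), for genes with a mean of at least 10, at a Benjamini-Hochberg FDR of 0.05; alternatives on recovered reads were DESeq2 1.42.0 and edgeR 4.0.16. Auxin and TT-seq calls are the authors' (DESeq2, adjusted p under 0.05). Standard errors were implied by log2 change and p (on the cell line table the largest relative difference from listed ones was 2.04e-12); 12 genes at 4 h and 8 at 12 h with a p of 0 entered at z = 38. Implied arm counts used 2 against 3 libraries at 4 h, 3 against 3 at 12 h, and equal numbers for TT-seq. A deposited log2 expression column matched the arm without auxin at 4 h (median error 0.00066 over 385 genes) and in TT-seq after INTS1 loss (0.0012 over 167). In the INTS8 comparison it matched the other arm (0.0011 against 0.703, 57 genes), and at 12 h neither arm (0.484 without auxin, 0.248 with it and 0.133 for their mean, 1019 genes). The 12 h and INTS8 signs were taken from correlations with 4 h (r = 0.83 over 8306 genes) and INTS1 (r = 0.88). The levels without treatment differed by over 0.1 log2 between the TT-seq comparisons for 64.5% of genes (76.7% with the INTS8 sign turned), so shared controls are not shown. Fits were tested on simulated data. Python 3.11.15, pandas 2.3.3 and scipy 1.17.1 did the rest. Named were all 10 members, up to 4 rises and 4 falls per list and comparison, and the 5 genes nearest to DNAJB1; for the lists, the text names genes of the RNA and untreated comparisons. Of the HEK293T markers chosen, 1 is not reported here and is left out of their sum.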

Additional observations from a re-analysis of the deposited data

Results flagged for a closer look

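The auxin effect on DNAJB1 differed between the times: its log2 change was larger at 12 h than at 4 h by 0.41 ± 0.11 (0.80 against 0.39; Wald z adjusted p = 0.00304), which is a difference of the same contrast between 2 time points. The difference also passed with the median of all genes subtracted from each comparison, and at an FDR of 0.01. The 4 h and 12 h series were separate sets of libraries, and they differed also without auxin. Implied normalized counts without auxin at 4 h and 12 h were 3073 and 3367 for DNAJB1, 848 and 1872 for BAG3, and 1273 and 2649 for HSF1. HSPH1 stood lower at 12 h, at 7411 and 5678. The part of series or kit in the difference was not tested.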

How the results depend on the processing

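For the untreated lines, 0 members were called in each alternative run other than 1 left-out library: leaving out each library in turn gave 0 to 1 members, the 1 being HSP90AB1 without parental replicate 3. With the replicate number as a block, 0 members were called. Same-numbered libraries did not deviate together (correlations -0.075, 0.0040 and -0.11), which does not settle whether the numbers pair the libraries. Signs turned for 4 small untreated differences, none past the threshold. HSP90AA1 gave -0.037 scaled to library totals, -0.018 with GC trends removed, with or without the replicate block, and -0.0055 to 0.075 without single libraries. DNAJB1 gave 0.024 with GC trends removed, with or without the block, and -0.052 to 0.017 without single libraries. BAG3 gave 0.061 in both GC fits and -0.051 to 0.016 without single libraries, and HSPH1 -0.057 to 0.0086. With a log2 change of at least 0.5 also required, the members called went from 4 to 0 at 4 h, from 4 to 2 at 12 h and from 1 to 0 for INTS8. At an adjusted p under 0.01 the INTS8 count was also 0. A stricter cut can only lower such counts. The shares of all genes past these cuts are not given here, so the drops cannot be called particular to the members. With 3 units in place of 2, 3 promoters held an element. With the INTS8 sign turned, chosen after seeing the data, the members called stayed at 1 for INTS8 and went from 0 to 6 for INTS8 minus INTS1. For INTS8 minus INTS1, turning the sign adds up the deposited changes, so shared changes grow by construction. The INTS8 log2 changes then read 0.38 for HSF1, 0.29 for HSPA8, -0.18 for HSPH1, 0.13 for HSP90AA1, 0.28 for HSP90AB1, 0.011 for DNAJB1 and -0.24 for BAG3, by construction. Signs of INTS8 minus INTS1 turned for HSPA6 (-1.55), HSPA8 (0.42), HSP90AA1 (0.050) and HSP90AB1 (0.52). Low counts and sequence shared with other genes limit what can be said of HSPA1A, HSPA1B and HSPA6.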
